A study of Rattus norvegicus with 125 samples.

Results

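Catalase, superoxide dismutases, glutathione peroxidases and peroxiredoxins were followed in 5 organs of rats that had breathed phosphine or air. The set was defined as 10 genes: Cat, Sod1, Sod2, Sod3, Gpx1, Gpx3, Gpx4, Prdx1, Prdx3 and Prdx5. A gene was read only from probe sets to which the platform annotation gives 1 symbol, and where a gene had several, from the one with the highest mean signal. By this rule 9 of the 10 genes were measured, on 11 probe sets, among 13438 genes in all. Prdx1 was left without a value, because its probe set carries 2 symbols and cannot be assigned to 1 gene.

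Adult male Sprague-Dawley rats were exposed whole-body to phosphine gas (PH3), 387 ppm over 40 min (15480 ppm×min, which the submitters call low), or to air (Air). Affymetrix arrays were hybridised with RNA of whole, powdered organs, labelled from the 3′ end. The 125 arrays came from 25 PH3 rats and 23 Air rats, and most rats gave several organs. Sampling took place 1, 3, 6 and 24 h later for brain, heart and kidney. Lung was sampled at 3 h, 24 h and 1 week, and liver at 3 and 6 h, of which the earlier time has only PH3 arrays here. Most groups had 4 rats. The PH3 hearts at 24 h, livers at 3 h and lungs at 1 week had 3 rats, and the Air hearts at 24 h and Air lungs at 3 h had 2.

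Superoxide dismutases turn superoxide into hydrogen peroxide, and catalase, glutathione peroxidases and peroxiredoxins remove that peroxide. The enzymes differ mainly in where they work: Sod1 and Gpx1 largely in the cytosol, Sod2 and Prdx3 in mitochondria, catalase in peroxisomes, and Sod3 and Gpx3 outside the cell. Phosphine is a fumigant that inhibits cytochrome c oxidase of the respiratory chain, and the superoxide that a blocked chain can release is a reason to look at these genes. A level is given as the mean log2 signal with its SD. A change is the PH3 mean less the Air mean on the log2 scale, with the standard error from limma. A log2 difference of 1 is a 2-fold difference. Levels are compared only within a probe set, since probe sets differ in how brightly they bind.

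On every organ's arrays the 3 or 4 marker genes that define it averaged between 10.25 and 13.55. The heart markers in lung, at 7.71 to 10.84, and the liver markers in kidney, at 6.75 to 11.11, came closest to that level from another organ. The array medians ran from 5.08 to 5.52. In brain at 24 h the cerebellum and brain stem markers averaged 7.86 (range 7.50 to 8.47) on the PH3 arrays and 5.56 (range 3.64 to 7.75) on the Air arrays, and the striatum markers 7.99 and 9.07. Brain values at 24 h are therefore also given without Air rats 89 and 145 and PH3 rat 91.

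The genes lie on 7 chromosomes of the GRCr8 assembly. The dismutase genes are Sod1 at chr11:42942742-42948399, Sod2 at chr1:50043323-50050168 and Sod3 at chr14:62822865-62828602. Cat is at chr3:110297340-110329526. The glutathione peroxidase genes are Gpx1 at chr8:117905462-117906588, Gpx3 at chr10:39529335-39537406 and Gpx4 at chr7:10300833-10303629. The peroxiredoxin genes are Prdx3 at chr1:269987691-270000111 and Prdx5 at chr1:213529042-213532787.

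The start regions of Gpx3 and Sod1 are shown because these genes stand near opposite ends of the set in how far their levels differed between organs. Gpx3 had the widest range of the set, and Sod1 one of the narrowest, the narrowest with a single RefSeq window. Each is a 300-base RefSeq window of GRCr8 on the plus strand, 5′ to 3′, at chr10:39529085-39529384 for Gpx3 and chr11:42942573-42942872 for Sod1.
Gpx3: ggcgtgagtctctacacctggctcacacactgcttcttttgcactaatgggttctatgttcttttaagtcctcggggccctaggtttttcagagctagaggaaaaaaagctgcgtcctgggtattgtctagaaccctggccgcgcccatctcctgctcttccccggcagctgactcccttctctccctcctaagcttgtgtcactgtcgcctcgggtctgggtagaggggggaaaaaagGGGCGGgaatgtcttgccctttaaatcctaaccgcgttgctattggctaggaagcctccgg
Sod1: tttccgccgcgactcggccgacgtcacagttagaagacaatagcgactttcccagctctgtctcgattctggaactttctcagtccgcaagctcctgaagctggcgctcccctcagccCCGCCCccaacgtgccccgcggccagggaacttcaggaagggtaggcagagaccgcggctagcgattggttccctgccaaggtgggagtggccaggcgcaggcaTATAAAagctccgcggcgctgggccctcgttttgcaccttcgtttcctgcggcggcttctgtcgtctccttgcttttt
Capitals mark matches on either strand to the GC box GGGCGG, the TATA box TATAAA or the antioxidant response element core TGACNNNGC, and no matches overlap in these windows. The GC box occurs in 33.1% of the 33469 RefSeq windows of this length, the TATA box in 14.2% and the response element core in 12.1%. The Gpx3 window held 1 GC box and 12 CpG dinucleotides, and the Sod1 window 1 GC box, 1 TATA box and 26 CpG dinucleotides, against a median of 7 CpG over all windows. The response element core had no match in either window. RefSeq entries were found for 9 of the 10 genes, all but Sod3.

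Normal levels were compared over the 60 Air arrays, all times together: 16 of brain, 14 of heart, 16 of kidney, 4 of liver and 10 of lung. The Air livers were all from 6 h and the Air lungs from 3 h, 24 h and 1 week. Liver and lung therefore shared no time and no rat. Each organ carried its own profile of the set, with Gpx3 and Sod3 highest in kidney, Cat in liver, and Sod2 and Prdx3 in heart. Brain was the organ with the lowest level for Cat, Sod3 and Gpx1, and for Sod2 on the brighter of its 2 probe sets only. A gene was counted between a pair of organs where the limma adjusted p was under 0.05 and the difference at least 1 on the log2 scale. In such whole-organ samples, fewer cells of a type and less RNA per cell cannot be told apart.

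Of 90 tests, 9 genes by 10 organ pairs, 38 met that rule. Between brain and heart 6 of the 9 genes met it (36.2% of all genes did), between brain and kidney 6 (37% of all genes), between brain and liver 4 (41.9%), and between brain and lung 4 (36.8%). Between heart and kidney 2 met it (27.5%), between heart and liver 4 (31.9%) and between heart and lung 2 (30.5%). Between kidney and liver the count was 2 (25%), between kidney and lung 5 (27.4%), and between liver and lung 3 (35.4%). The counts for brain against heart, brain against kidney and kidney against lung were thus the ones furthest above the share of all genes. The median range between the highest and the lowest organ mean was 2.27 log2 for the 9 genes and 1.64 for all genes.

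Kidney had the highest mean for 4 of the 9 genes, Gpx3, Sod3, Prdx5 and, on the brighter of its 2 probe sets only, Gpx4. It was the highest organ for 13.8% of all genes. Liver was highest for 3 (23.1% of all genes), heart for 2 (19.7%), and brain and lung for 0 (21.3% and 22.1%). Read from the brightest probe set of each gene, brain and lung each had the lowest mean for 4 genes (34.7% and 18.2% of all genes) and liver for 1, Gpx3 (20.9%).

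**Figure D1:**
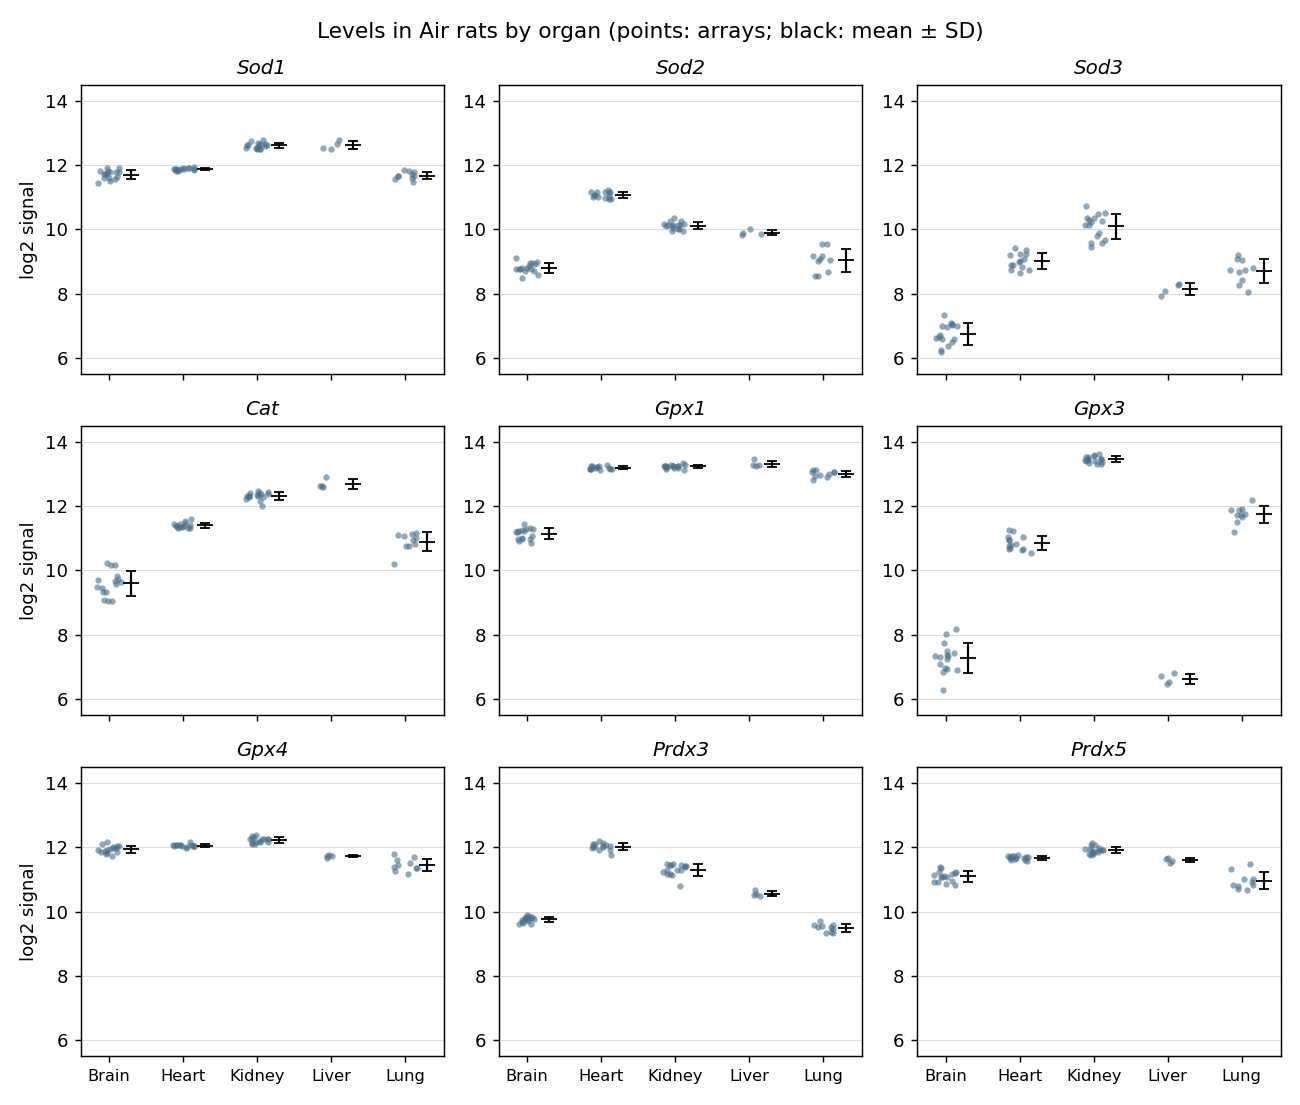
Log2 signal of 9 genes in the Air rats of 5 organs, with 1 panel per gene, 1 point per array and the mean ± SD in black. Each gene is read from its own probe set, so panels are not comparable in level. Gpx3 runs from 6.62 in liver to 13.46 in kidney, while Gpx4, Sod1 and Prdx5 stay within a 2-fold range.

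Among the dismutases, Sod1, the copper and zinc enzyme of the cytosol, differed little between organs. It averaged 12.62 ± 0.13 in liver (n = 4), 12.61 ± 0.09 in kidney (n = 16), 11.88 ± 0.04 in heart (n = 14), 11.71 ± 0.14 in brain (n = 16) and 11.68 ± 0.12 in lung (n = 10). The 4 livers had 12.49, 12.67, 12.54 and 12.79, and the 16 kidneys had a lowest value of 12.49, a median of 12.62 and a highest of 12.79. Liver and kidney overlapped and stood above the other 3 organs without overlap, by 1.67-fold for kidney over heart. Neighbours in this order that did not differ by the limma adjusted p were liver and kidney (0.896) and brain and lung (0.507).

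Sod2, the manganese enzyme of the mitochondrial matrix, was highest in heart. Its level was 11.07 ± 0.09 in heart, 10.12 ± 0.11 in kidney, 9.90 ± 0.08 in liver, 9.03 ± 0.36 in lung and 8.81 ± 0.16 in brain. The 14 hearts had a lowest value of 10.94, a median of 11.06 and a highest of 11.21, above every array of the other organs. Heart exceeded brain by 2.27 ± 0.07, or 4.81-fold (limma adjusted p = 6.0e-40), and kidney by 0.95 ± 0.07. Kidney and liver differed by 0.22 ± 0.10 (limma adjusted p = 0.0589). A second probe set of Sod2 also had its highest level in heart, at 9.90 ± 0.11, followed by kidney at 8.49 ± 0.13. It put brain (7.81 ± 0.12) above liver (7.48 ± 0.19) and lung (7.44 ± 0.24), so the place of brain in the order of Sod2 was not settled.

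Sod3, the secreted dismutase that binds to the matrix and to vessel walls, covered a 10.2-fold range. It averaged 10.09 ± 0.38 in kidney, 9.01 ± 0.24 in heart, 8.70 ± 0.36 in lung, 8.14 ± 0.17 in liver and 6.74 ± 0.33 in brain. The kidneys had a lowest value of 9.46, a median of 10.18 and a highest of 10.72, and the brains 6.18, 6.68 and 7.34. Every organ above brain passed the rule against it. Heart and lung, neighbours in this order, differed by only 0.31 ± 0.13 (limma adjusted p = 0.0295) and overlapped.

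Cat encodes catalase, the peroxisomal enzyme that breaks down hydrogen peroxide without consuming glutathione. Its level was 12.70 ± 0.15 in liver, 12.32 ± 0.11 in kidney, 11.41 ± 0.08 in heart, 10.90 ± 0.29 in lung and 9.60 ± 0.38 in brain. The 4 livers had 12.92, 12.63, 12.64 and 12.59, and none overlapped with the kidneys, whose highest value was 12.48. Liver exceeded brain by 3.10 ± 0.13, or 8.57-fold (limma adjusted p = 7.0e-31), and kidney by 0.37 ± 0.13 (adjusted p = 0.0124). All 10 organ pairs of Cat had an adjusted p under 0.05, and 7 of them a difference of at least 1.

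Gpx1, the abundant selenium-dependent peroxidase of the cytosol, had nearly the same level in 4 organs and a lower one in brain. It averaged 13.32 ± 0.10 in liver, 13.24 ± 0.05 in kidney, 13.20 ± 0.04 in heart, 13.01 ± 0.10 in lung and 11.14 ± 0.17 in brain. The 4 livers had 13.27, 13.27, 13.28 and 13.47. Liver exceeded brain 4.52-fold, while liver and kidney (limma adjusted p = 0.246), liver and heart (0.0780) and kidney and heart (0.370) did not differ past the threshold. Only 0.0744% of genes had a higher mean than Gpx1 in kidney, 0.127% in liver, 0.134% in lung and 0.156% in heart. Its probe set thus worked near the top of the range of the arrays in these 4 organs. Their near-equal levels and the fold over brain carry that limit.

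Gpx3, the glutathione peroxidase secreted into plasma, had the widest range of the set. It averaged 13.46 ± 0.09 in kidney, 11.75 ± 0.27 in lung, 10.86 ± 0.22 in heart, 7.27 ± 0.47 in brain and 6.62 ± 0.16 in liver. The 16 kidneys had a lowest value of 13.32, a median of 13.46 and a highest of 13.63, and the 4 livers had 6.47, 6.51, 6.71 and 6.80. Kidney exceeded liver by 6.84 ± 0.16, or 114-fold (limma adjusted p = 6.4e-45), and brain by 6.19 ± 0.10, or 72.9-fold. Only 0.0372% of genes had a higher mean in kidney, so the Gpx3 probe set, like that of Gpx1, worked near the top of the range of the arrays there, and these folds carry that limit. Only 3.88% of all genes had a wider range between organs. Brain and liver, at the low end, differed by 0.65 ± 0.16 and their arrays overlapped.

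Gpx4, which reduces lipid hydroperoxides within membranes, had the narrowest range, 1.71-fold. Its level was 12.23 ± 0.08 in kidney, 12.06 ± 0.05 in heart, 11.94 ± 0.12 in brain, 11.73 ± 0.04 in liver and 11.46 ± 0.19 in lung. The kidneys had a lowest value of 12.10, a median of 12.25 and a highest of 12.40, overlapping with heart and brain. All 10 pairs had an adjusted p under 0.05 and 0 of them reached a difference of 1. A range wider than that of Gpx4 was found for 77.8% of all genes. These values come from the brighter of its 2 probe sets. The other was dim, with organ means below the lowest array median of 5.08. It was highest in heart (4.92 ± 0.32), with kidney at 4.30 ± 0.28 and lung lowest at 3.99 ± 0.12.

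Prdx3, the peroxiredoxin of the mitochondrial matrix, was highest in heart, as was Sod2. It averaged 12.03 ± 0.11 in heart, 11.30 ± 0.18 in kidney, 10.56 ± 0.08 in liver, 9.75 ± 0.09 in brain and 9.49 ± 0.12 in lung. The 14 hearts had a lowest value of 11.76, a median of 12.04 and a highest of 12.21, all above the highest kidney (11.48). Heart exceeded lung by 2.53 ± 0.05, or 5.79-fold (limma adjusted p = 4.5e-47). At the low end, brain exceeded lung by 0.26 ± 0.05.

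Prdx5, a peroxiredoxin found in mitochondria, peroxisomes and cytosol, stayed within a 1.95-fold range. It averaged 11.92 ± 0.11 in kidney, 11.67 ± 0.05 in heart, 11.60 ± 0.07 in liver, 11.10 ± 0.17 in brain and 10.96 ± 0.26 in lung. The kidneys had a lowest value of 11.76, a median of 11.91 and a highest of 12.12. Heart and liver did not differ past the threshold (0.07 ± 0.09, limma adjusted p = 0.488), and the 10 pairs included 0 with a difference of 1.

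The organ profile of each gene was also set against all other genes, over the 16 means of the Air groups. These means come from 5 organs that differ in base level and share rats, so the correlations describe organ profiles and have no p. The genes most like Prdx3 were Dlst (r = 0.996), Sdhd (0.995) and Mrpl58 (0.99), and those most like Sod2 were Tmem126a (0.993), Macrod1 (0.99) and Tefm (0.989). Those most like Cat were Eci3 (0.987), Swap70 (0.987) and Slc40a1 (0.986), and those most like Sod3 Fkbp9 (0.995), Nid2 (0.991) and Vps25 (0.986). Gpx3 was nearest to Stard8 (0.988), Ppic (0.987) and Tmem252 (0.983), and Gpx1 to Prkab1 (0.994), Ppp2r5a (0.991) and Shb (0.989). Gpx4 had the least close partners, Cflar (0.965), Mrps25 (0.958) and Prxl2b (0.958). Sod1 was nearest to Aldh7a1, Slc25a38 and Entpd5 (0.987, 0.986 and 0.986), and Prdx5 to Cisd3, Ntf3 and C8h15orf61 (0.99, 0.987 and 0.983).

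No gene of the set changed past the threshold after phosphine in any organ or at any time. PH3 was compared with Air in 16 groups of organ and time, which gave 144 tests, and 0 of them passed a limma adjusted p under 0.05. At an unadjusted p under 0.05 there were 6 tests (4.17%), against 7.53% of the tests of all genes. In brain 0 of 9 genes passed at each time, where 0.00744% of all genes passed at 1 h, 0.00744% at 3 h, 0.00744% at 6 h and 0.0298% at 24 h. In heart the count was again 0 at each time, with 0.0521% of all genes at 1 h, 0.238% at 3 h, 2.7% at 6 h and 0% at 24 h. In kidney it was 0, with 0.223% of all genes at 1 h, 0.104% at 3 h, 0.127% at 6 h and 0.0149% at 24 h. The liver count was 0 at 6 h (0.238% of all genes), and the lung count was 0 at 3 h (0.298%), 24 h (0%) and 1 week (0%).

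The 95% intervals were not adjusted for the number of tests, so each describes its own comparison and they are no joint bound. Changes of Gpx1 in kidney, liver, lung and heart and of Gpx3 in kidney carry a further limit. Their probe sets worked near the top of the range of the arrays there. In all 144 tests the 95% interval of the change lay within a 2-fold difference either way, which held for 92.1% of the tests of all genes. A 1.5-fold difference lay outside the interval in 126 tests (87.5%), against 67.6% for all genes. The median absolute change was 0.07 for the 9 genes and 0.11 for all genes, and the median standard error 0.09 and 0.16. Most organ means of the 9 genes on the Air arrays lay above those of most genes. These comparisons with all genes were not matched for signal. The gene with the least precise values was Sod3, whose intervals reached from -0.94 to 0.89 and excluded a 1.5-fold change in only 7 of its 16 comparisons. Its SD within a group had a median of 0.27, against 0.07 for Gpx4 and 0.19 over all genes.

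**Figure D2:**
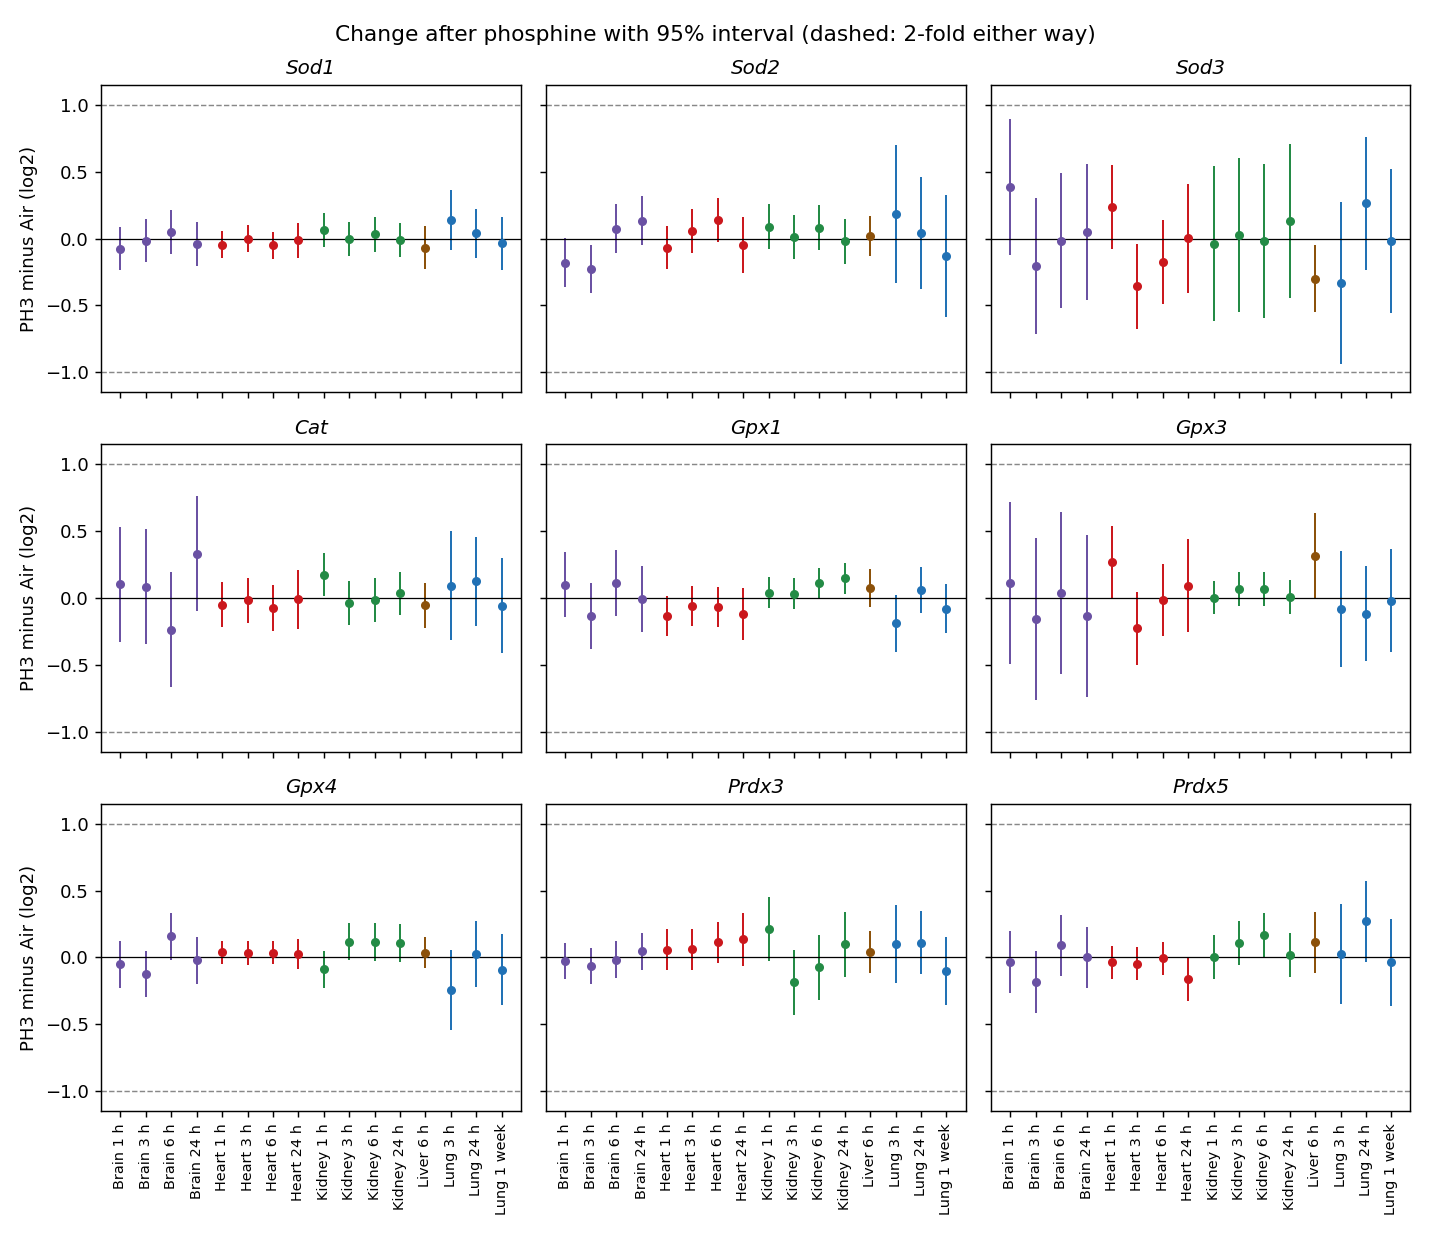
Change after phosphine, as the log2 difference of PH3 minus Air with its 95% interval from limma, for 9 genes (panels) in 16 comparisons (colours: organs). Dashed lines mark a 2-fold difference either way, and no interval reaches them; the widest, for Sod3, run from -0.94 to 0.89.

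By gene, the change of Sod1 ran from -0.08 (brain at 1 h) to 0.14 (lung at 3 h), that of Gpx1 from -0.19 (lung at 3 h) to 0.15 (kidney at 24 h) and that of Gpx4 from -0.24 (lung at 3 h) to 0.16 (brain at 6 h). Prdx3 ran from -0.18 (kidney at 3 h) to 0.21 (kidney at 1 h), and Prdx5 from -0.18 (brain at 3 h) to 0.27 (lung at 24 h). Sod2 ran from -0.23 (brain at 3 h) to 0.18 (lung at 3 h). The estimates of these 6 genes lay within 0.27 log2 of 0. Cat ran from -0.24 (brain at 6 h) to 0.33 (brain at 24 h), Gpx3 from -0.23 (heart at 3 h) to 0.32 (liver at 6 h), and Sod3 from -0.36 (heart at 3 h) to 0.39 (brain at 1 h). The 0.33 of Cat rested on 3 brain arrays that stand apart. Standard errors reached 0.30 for Gpx3, 0.29 for Sod3, 0.25 for Sod2 and 0.21 for Cat, and at most 0.18 for the others.

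The smallest unadjusted p belonged to Gpx1 in kidney at 24 h. The PH3 kidneys had 13.31, 13.25, 13.49 and 13.52, and the Air kidneys 13.21, 13.25, 13.28 and 13.24. The groups overlapped, with 3 PH3 arrays above all Air arrays. The change was 0.15 ± 0.06, with an unadjusted p of 0.0137 and a limma adjusted p of 1.00.

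Sod2 in brain at 3 h came next. The PH3 brains had 8.58, 8.66, 8.84 and 8.62, and the Air brains 8.91, 8.78, 8.95 and 8.98. The PH3 arrays were lower but for rat 122, which lay above 1 Air array. The change was -0.23 ± 0.09 (unadjusted p = 0.0154, limma adjusted p = 0.999). Of the 9 genes, 8 had a negative change in brain at 3 h, with a median of -0.13, beside a median of -0.03 over all genes. Such one-sided counts were not particular to this comparison. In lung at 1 week 9 were negative (median -0.06, all genes -0.02), and in lung at 24 h 8 were positive (median 0.06, all genes 0.01). The genes share arrays, and these counts were not tested.

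Sod3 in liver at 6 h had the smallest adjusted p of the set. The PH3 livers had 7.77, 8.01, 7.80 and 7.79, and the Air livers 8.08, 8.26, 7.93 and 8.30. The groups overlapped only through PH3 rat 134, the 8.01. The change was -0.30 ± 0.12 (unadjusted p = 0.0219, limma adjusted p = 0.256). The smooth muscle markers of the livers averaged 5.63 (PH3) and 5.57 (Air), a difference of 0.06. Their part in the Sod3 difference of the livers was not tested.

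Sod3 in heart at 3 h had the largest difference among the tests with an unadjusted p under 0.05. The PH3 hearts had 8.78, 8.86, 8.83 and 8.75, and the Air hearts 9.07, 9.19, 8.99 and 9.42. The highest PH3 array lay below the lowest Air array. The share of all genes without overlap is not given here, so this only describes the arrays. The change was -0.36 ± 0.15 (unadjusted p = 0.0270, limma adjusted p = 0.318). In the same hearts the 4 smooth muscle markers averaged 7.47 (range 7.14 to 7.98) on the PH3 arrays and 8.08 (range 7.93 to 8.36) on the Air arrays, and the 4 adipocyte markers 4.45 (3.65 to 5.03) and 5.12 (3.86 to 7). Their part in the Sod3 difference was not tested.

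In kidney, Cat at 1 h had 12.34, 12.47, 12.22 and 12.47 on the PH3 arrays and 12.29, 12.17, 12.33 and 12.01 on the Air arrays. The groups overlapped, with a change of 0.18 ± 0.08 (unadjusted p = 0.0355, limma adjusted p = 0.491) and of 0.11 without Air rat 168. Prdx5 in kidney at 6 h had 11.92, 12.18, 11.91 and 11.92 on the PH3 arrays and 11.76, 11.78, 11.84 and 11.88 on the Air arrays. The groups did not overlap, and PH3 was higher by 0.17 ± 0.08 (unadjusted p = 0.0482, limma adjusted p = 0.635), or by 0.10 without PH3 rat 134. A lack of overlap was not particular to Sod3 and Prdx5. In heart at 1 h the highest PH3 array of Sod1 (11.877) lay below the lowest Air array (11.880). In kidney at 6 h the lowest PH3 array of Gpx1 (13.28) lay above the highest Air array (13.27). The share of all genes without overlap is not given here. The proximal tubule markers of these kidneys differed by -0.03 at 6 h, with overlapping ranges, and by 0.09 at 1 h. At 1 h they averaged 11.78 on the PH3 arrays (range 11.73 to 11.84). The Air arrays averaged 11.69 (range 11.64 to 11.72), below every PH3 array. The part of these markers in the Cat and Prdx5 differences was not tested.

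**Figure D3:**
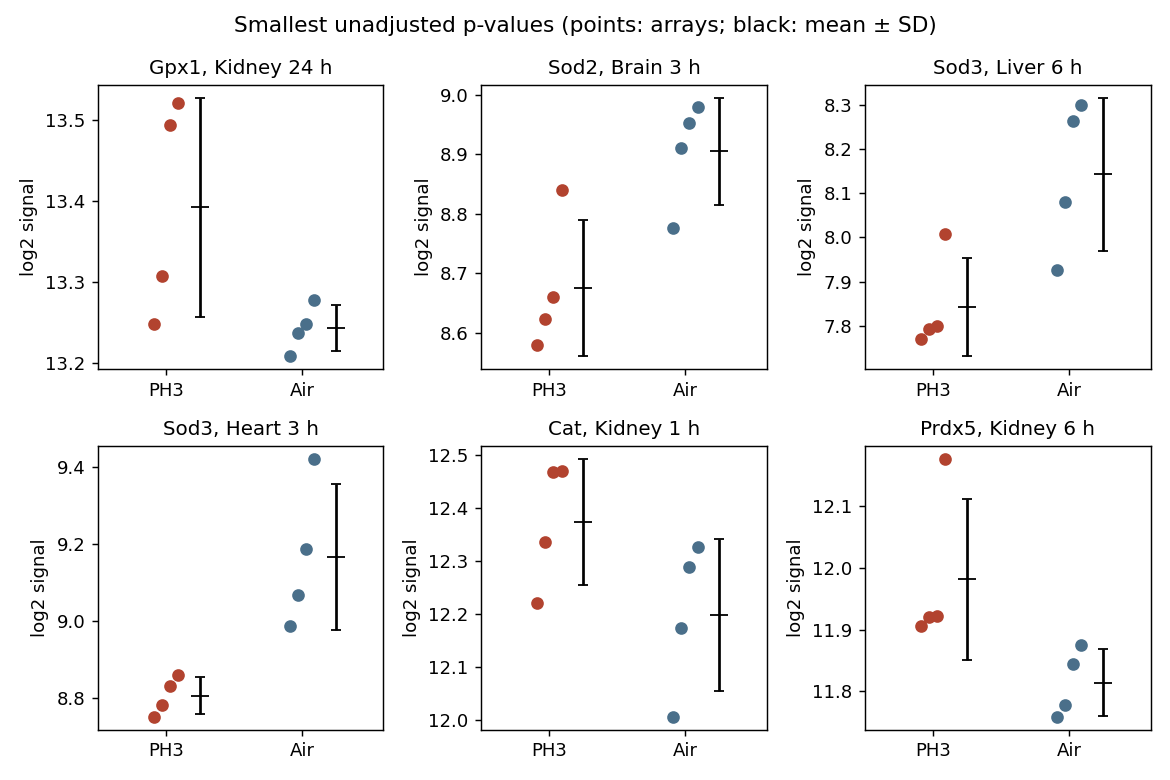
Log2 signal per array, PH3 left of Air, in the 6 comparisons with the smallest unadjusted p among 144; black marks are means ± SD, and each panel has its own scale. Of these 6, Sod3 in heart at 3 h and Prdx5 in kidney at 6 h are without overlap between PH3 and Air. Other tests of the set, not shown, were without overlap too, among them Gpx1 in kidney at 6 h and Sod1 in heart at 1 h. The 6 were picked for a small p, and the share of all genes without overlap is not given here. None of the 6 passed the adjusted threshold.

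Gpx3 in liver and in heart came close to these values. Gpx3 in liver at 6 h had 7.08, 6.91, 6.67 and 7.10 on the PH3 arrays and 6.47, 6.51, 6.71 and 6.80 on the Air arrays, a change of 0.32 ± 0.15 with overlapping groups (unadjusted p = 0.0507, limma adjusted p = 0.356). Gpx3 in heart at 1 h had 10.62, 10.98, 10.96 and 11.28 on the PH3 arrays and 10.63, 10.68, 10.76 and 10.70 on the Air arrays, a change of 0.27 ± 0.13 (limma adjusted p = 0.616). The smooth muscle and adipocyte markers of those hearts were higher on the PH3 arrays by 0.47 and 0.45, and their part in the Gpx3 value was not tested. Cat in brain at 24 h had 9.72, 10.17, 10.18 and 9.64 on the PH3 arrays and 9.66, 10.24, 9.44 and 9.04 on the Air arrays. Its change of 0.33 turned to -0.11 ± 0.24 without the 3 arrays whose brain region markers stood apart. Without them the changes of the other 8 genes ran from 0 (Sod1) to 0.28 (Sod3), and again 0 passed. In heart at 6 h, without PH3 rat 141, an array taken as standing apart, the 9 changes ran from -0.09 (Sod3) to 0.18 (Sod2), and 0 passed.

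The PH3 livers at 3 h, which have no Air counterpart, are described only by their values. Cat had 12.75 to 12.81, Gpx1 13.25 to 13.47 and Sod1 12.58 to 12.71 on these 3 arrays. Gpx3 had 7.07 to 7.43 and Sod3 8.07 to 8.33.

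Whether the exposure effect on a gene changed with time was asked by a limma F test in brain, heart, kidney and lung. Of 36 tests 0 passed, with 0% of all genes passing in brain, 0.268% in heart, 0% in kidney and 0% in lung. The smallest adjusted p was 0.532, for Sod3 in heart. At an unadjusted p under 0.05 there was 1, Sod2 in brain (unadjusted p = 0.0149, adjusted p = 0.935), whose change was -0.18 at 1 h, -0.23 at 3 h, 0.07 at 6 h and 0.13 at 24 h. Without the arrays that stand apart, the change of Sod2 at 24 h was 0.25 ± 0.11 (unadjusted p = 0.0352, limma adjusted p = 1). A further F test compared the effect, averaged over 1, 3 and 6 h, between brain, heart and kidney. Here 0 of 9 genes passed, where 1.17% of all genes did. The smallest adjusted p was 0.355, again for Sod2, with changes of -0.11 in brain, 0.04 in heart and 0.06 in kidney.

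Other enzymes that handle peroxides and thiols were taken from a list of 24 genes, 23 of them measured, which gave 368 tests. Of these 1 passed upward and 0 downward, which is 0.272% of the tests, beside 0.253% over all genes. An unadjusted p under 0.05 was found in 39 (10.6%, beside 7.53% over all genes). The 1 that passed was Glrx5, a mitochondrial glutaredoxin of iron-sulphur cluster assembly, in liver at 6 h. It had 11.59 ± 0.11 on the PH3 arrays and 11.23 ± 0.03 on the Air arrays (n = 4 each). The rise was 0.36 ± 0.06 (limma adjusted p = 0.0419). The arrays did not overlap, a trait for which the share of all genes is not given here. Several others had larger changes that missed the threshold, and they were singled out after their values were seen. Srxn1, the sulfiredoxin that restores over-oxidised peroxiredoxins, had a mean of 8.87 on the PH3 arrays and 7.12 on the Air arrays of kidney at 6 h, a change of 1.75 ± 0.38 (limma adjusted p = 0.0534). Hmox1, heme oxygenase, had 8.08 and 6.79 in kidney at 3 h, PH3 and Air, a change of 1.28 ± 0.30 (adjusted p = 0.120). Gclm, the regulatory subunit of the enzyme that limits glutathione synthesis, had 9.33 and 10.36 in liver at 6 h, a change of -1.03 ± 0.20 (adjusted p = 0.0536). In those comparisons the changes of the catalase, dismutase and peroxidase genes ran from -0.07 to 0.17 (kidney at 6 h), -0.18 to 0.12 (kidney at 3 h) and -0.30 to 0.32 (liver at 6 h).

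**Figure D4:**
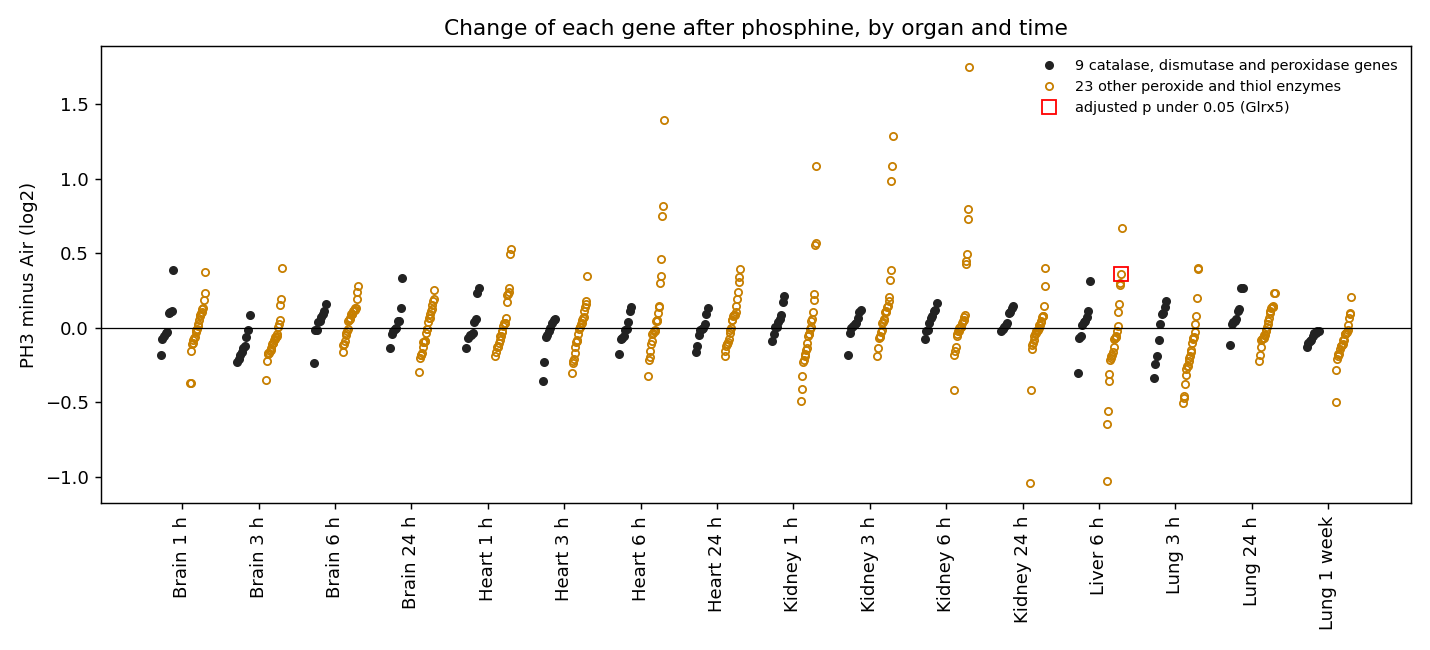
Change of each gene after phosphine (log2, PH3 minus Air) in 16 comparisons: 9 catalase, dismutase and peroxidase genes as filled points, 23 other peroxide and thiol enzymes as open points beside them. The filled points lie between -0.36 and 0.39; the open points reach 1.75 (Srxn1 in kidney at 6 h), and the red square marks Glrx5 in liver at 6 h, the 1 gene past the adjusted threshold.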

How the data were processed

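The series matrix holds log2 values of 31139 probe sets on 125 arrays, which the authors made by RMA (background correction, quantile normalisation and a summary over probes), per the submitters' processing notes. Partek and Affymetrix Expression Console are also named there. The deposited log2 values ran from 2.60 to 14.41. Whether arrays of all organs were normalised together is not given in the sources used here, and the mean array median differed by up to 0.32 between organs. Arrays have no read depth, and their number limits the precision.

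Probe sets were named from the platform annotation: 19068 had 1 symbol, 573 several and 11498 none. Identifiers of 18989 matched RefSeq (GRCr8). Where a gene had several, the probe set brightest on average over the arrays of the fit was used. For Sod2 and Gpx4, which have 2 probe sets each, this was the same probe set in all 5 organs. For each tissue limma 3.58.1 (R 4.3.3, with data.table version 1.17.8) fitted 1 coefficient per group over all arrays, with eBayes and a trend, and Benjamini-Hochberg adjustment was made per comparison over 13438 genes, with 0.05 as the threshold. Organs were compared in 1 fit over the Air arrays. The PH3 minus Air fit of each tissue, with 1 comparison per tissue, and the organ fit, with kidney minus liver, were tested on simulated data. The F tests, the fits with the rat as a block and those with array weights were not. Python 3.11.15 and matplotlib 3.10.9 made the plots.

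PH3 and Air arrays come from different rats. Tissues of 1 rat share its number, so the rat was tried as a block: its correlation was 0.00366 over the Air organs and 0.0206 over the 3 tissues.

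All genes of the set are named, with array values for the 3 tests with the smallest unadjusted p and the organ of highest level. Arrays of other comparisons were added after their values were seen. The rule also names other enzymes that pass and the 3 genes most correlated with each profile. The genes, the lists and the arrays taken as standing apart were chosen with earlier results of these data known. Alternatives were the arrays fitted, probe sets, dim genes, normalisation, array weights, the variance prior, arrays that stand apart, the block and each array left out.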

Additional observations from a re-analysis of the deposited data

Results flagged for a closer look

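In 12 of 252 sets of 4 arrays, each set being 1 gene in 1 group, 1 array stood apart from the other 3 by Dixon's test, where chance gives 12.6. In liver at 6 h, Sod3 was 8.01 in PH3 rat 134 (others 7.77 to 7.80), Cat 12.92 in Air rat 126 (12.59 to 12.64) and Gpx1 13.47 in Air rat 156 (13.27 to 13.28). In kidney, Prdx5 was 12.18 in PH3 rat 134 at 6 h (others 11.91 to 11.92), Sod2 10.34 in Air rat 145 at 24 h (10.13 to 10.15) and Gpx4 12.34 in Air rat 107 at 1 h (12.25 to 12.27).

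In brain, PH3 rat 105 at 3 h stood low for both Sod1, at 11.51 (others 11.73 to 11.77), and Prdx5, at 10.77 (10.96 to 10.99), and Air rat 132 at 6 h for Prdx5, at 10.85 (11.07 to 11.09). In heart, Prdx3 was 12.04 in PH3 rat 98 at 1 h (others 12.19 to 12.20). In lung at 24 h, Gpx1 was 13.14 in PH3 rat 87 (12.99 to 13.00) and Gpx4 11.37 in PH3 rat 70 (11.43 to 11.44).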

How the results depend on the processing

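Under every alternative run, 0 of the exposure tests passed the adjusted threshold, including each of the 125 arrays left out in turn (0 to 0 called). The number at an unadjusted p under 0.05 was 6 to 9 in the other settings that cover all 144 tests and 18 with array weights, where the smallest adjusted p was 0.0565. The sign of an uncalled change turned in 19 of 144 tests with array weights and in 11 with arrays centred on their median. Between organs, the count of 38 became 83 with the adjusted p alone, without a minimum difference, 45 with arrays centred on their median, and 38 to 39 with each Air rat left out. With the rat as a replicate block it stayed at 38, and no call was lost or gained; the F test between tissues called 0 with the block. In the 6 h arrays of the same 4 rats, with or without the rat as a replicate block, 54 tests could be made, in which 1 call was lost (Sod3, kidney over heart) and 3 were gained (Sod1, kidney over brain and liver over brain; Sod2, heart over kidney). Lung has no 6 h arrays and was outside these 54 tests. With the other probe sets of Sod2 and Gpx4, 2 calls were lost (Sod2, kidney over brain and liver over brain) and 2 gained (Sod2, heart over kidney and kidney over liver), and brain stood above liver and lung for Sod2. No paired analysis was possible for PH3 against Air because different rats were exposed. The cause of these shifts was not tested. Groups of 2 to 4 rats limit the precision.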
